A study of Mus musculus with 4 samples.

Results

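A group of 9 of the 29835 genes in the series marks the naive, memory and circulating states of T cells: Tcf7, Lef1, Ccr7, Il7r, S1pr1, Klf2, Satb1, Bach2 and Cd44. They were chosen by name and read in lymphocytes of malignant ascites that were picked by their unique molecular identifiers (UMIs, each standing for 1 captured transcript). A cell passed the CD8 T gate with at least 2 UMIs of the CD3 genes Cd3d, Cd3e and Cd3g together and at least 1 of Cd8a or Cd8b1. The CD4 T gate asked for the same CD3 UMIs, Cd4 and no Foxp3, the Treg gate for CD3 and Foxp3, the NK gate for at least 2 UMIs of Ncr1, Klrb1c and Klre1 with at most 1 of CD3, and the B gate for at least 3 of Cd79a and Cd79b. All 9 genes were listed in each library.

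The mice were C57BL/6 animals injected in the peritoneal cavity with ID8-Trp53-/- cells, a mouse ovarian tumour line that lacks Trp53, and were treated from 7 days after engraftment until their ascites reached about 3 mL. The BTYNB group received BTYNB, a small molecule against the RNA-binding protein Igf2bp1, at 50 mg/kg with an isotype antibody, and the combination group received BTYNB with the PD-1 blocking antibody RMP1-14. The control group received DMSO and isotype antibody, and the anti-PD-1 group DMSO and RMP1-14, with 100 ng per dose of either antibody. These amounts are those of the labels, and the study's methods state others. Ascites cells were cleared of erythrocytes and frozen, and those of all animals of a group were pooled into 1 library, so the spread between animals was not measured, no test was possible, and every interval given here covers counting error only (95%).

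Naive T cells circulate between blood and lymph nodes in a resting state that a small group of transcription factors maintains. Tcf7 (which encodes TCF1) and Lef1 are HMG-box factors of naive and memory T cells, Bach2 is a repressor that restrains effector differentiation, Satb1 organises chromatin, and Klf2 is a quiescence factor that drives genes of trafficking. Ccr7 is the chemokine receptor for entry into lymph nodes, S1pr1 the receptor for exit from them, and Il7r a receptor chain for the survival cytokine IL-7. Most of these genes are lowered when a T cell is activated, whereas Cd44, an adhesion receptor, is raised and stays high on memory cells.

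The libraries differed in the cells they held before any gene was read. After quality limits, 1129 BTYNB cells and 93 combination cells passed the CD8 T gate, 329 and 13 the CD4 T gate, 121 and 11 the Treg gate, 633 and 47 the NK gate, and 3169 and 273 the B gate. The control library had 8 CD8 T, 11 NK and 29 B cells, and the anti-PD-1 library 22, 14 and 37, so neither entered a comparison. The smallest deposited cell had 869 UMIs in BTYNB and 5115 in combination, and the median CD8 T-gated cell had 2254 and 6778. Of the 1129 BTYNB cells in the CD8 T gate only 81 reached 5115 UMIs, called the floor here. Libraries shared at most 4 cell barcodes in any pair.

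The labels of the gates were checked against marker lists. All 11 T lineage genes were detected in the CD8 T gate of both libraries, at a summed 4692 CPM (UMIs per 1000000 UMIs of the gate) in BTYNB and 2396 CPM in combination. UMIs of another kind of cell (at least 3 of keratins or of macrophage genes, or any of Cd79a and Cd79b, and of CD3 in the B gate) were carried by 6.55% of the CD8 T-gated BTYNB cells, by 44.4% of those at or above the floor and by 60.2% of the combination cells. The 10 macrophage and monocyte genes summed to 1512 CPM in BTYNB cells at or above the floor and to 3458 CPM in combination cells, and the 7 tumour genes to 1480 and 1038 CPM. Large cells of either library were thus less purely lymphoid than small ones by these markers.

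Over all gated cells of the BTYNB library, 8 of the 9 genes had their highest level in a T cell gate, and Bach2 had its highest level in B cells. The B values over all cells include large cells that mostly carried UMIs of another kind, as given below. Among cells under the floor, Klf2 was higher in B cells, at 731 CPM, than in CD8 T cells, at 670 CPM. Tcf7 stood at 849.8 CPM in CD8 T (95% interval 819 to 882) and 842 CPM in CD4 T cells, intervals that overlap. It was at 420.0 CPM in NK cells, at 60.5 in Treg and at 33.4 in B cells, against 52.2 CPM in gated tumour cells (keratin-positive, Ptprc-negative). B cells under the floor held 10.5 CPM of Tcf7. Tcf7 therefore separated conventional T and NK cells from Treg and B cells. Lef1 ran from 341 CPM in CD8 T and 261 in CD4 T to 109 in Treg and 98.4 in NK cells, where the last 2 intervals overlap, and to 12.5 in B cells.

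The receptors differed in their order over the gates. Il7r was at 922 CPM in CD8 T and 927 in CD4 T cells, indistinguishable by their intervals, at 445 CPM in Treg, 51.3 in NK and 10.4 in B cells. Over all cells Ccr7 was highest in CD8 T cells at 147 CPM, lay between 77.6 and 99.2 CPM in CD4 T, Treg and B cells with overlapping intervals, and was at 6.73 CPM in NK cells. Among cells under the floor it was at 165 CPM in B cells, against 86.3 in CD4 T and 69.5 CPM in Treg cells. S1pr1 led in CD4 T cells at 298 CPM, followed by CD8 T at 169 and Treg at 143 CPM, which overlap, by B cells at 99.7 and by NK cells at 14.7 CPM. Among cells under the floor S1pr1 was at 200 CPM in B cells and 162 CPM in Treg cells. NK cells thus held Tcf7 and Satb1 but little of the 3 receptors.

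Klf2 was detected in every gate, from 518 CPM in CD8 T through 395 in B, 348 in CD4 T and 306 in NK to 223 CPM in Treg cells. Over all cells the intervals of B and CD4 T cells overlap, as do those of CD4 T and NK cells. Under the floor Klf2 was instead highest in B cells, at 731 CPM against 670 CPM in CD8 T cells. Satb1 ran from 533 CPM in CD8 T and 339.7 in NK to 286 in CD4 T, 223 in B and 99.2 CPM in Treg cells. Among cells under the floor Satb1 was at 445 CPM in B cells and 360 CPM in CD4 T cells. Bach2, which also acts in B cells, was at 468 CPM there, at 247 in CD8 T, 186 in NK and 176 in CD4 T cells, the last 2 overlapping, and at 79.9 CPM in Treg. Cd44 had another order, with 314 CPM in CD4 T, 252 in Treg, 237 in NK, 167 in CD8 T and 146 in B cells. Treg cells had the lowest level of Klf2, Satb1 and Bach2 among the 5 gates.

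**Figure D1:**
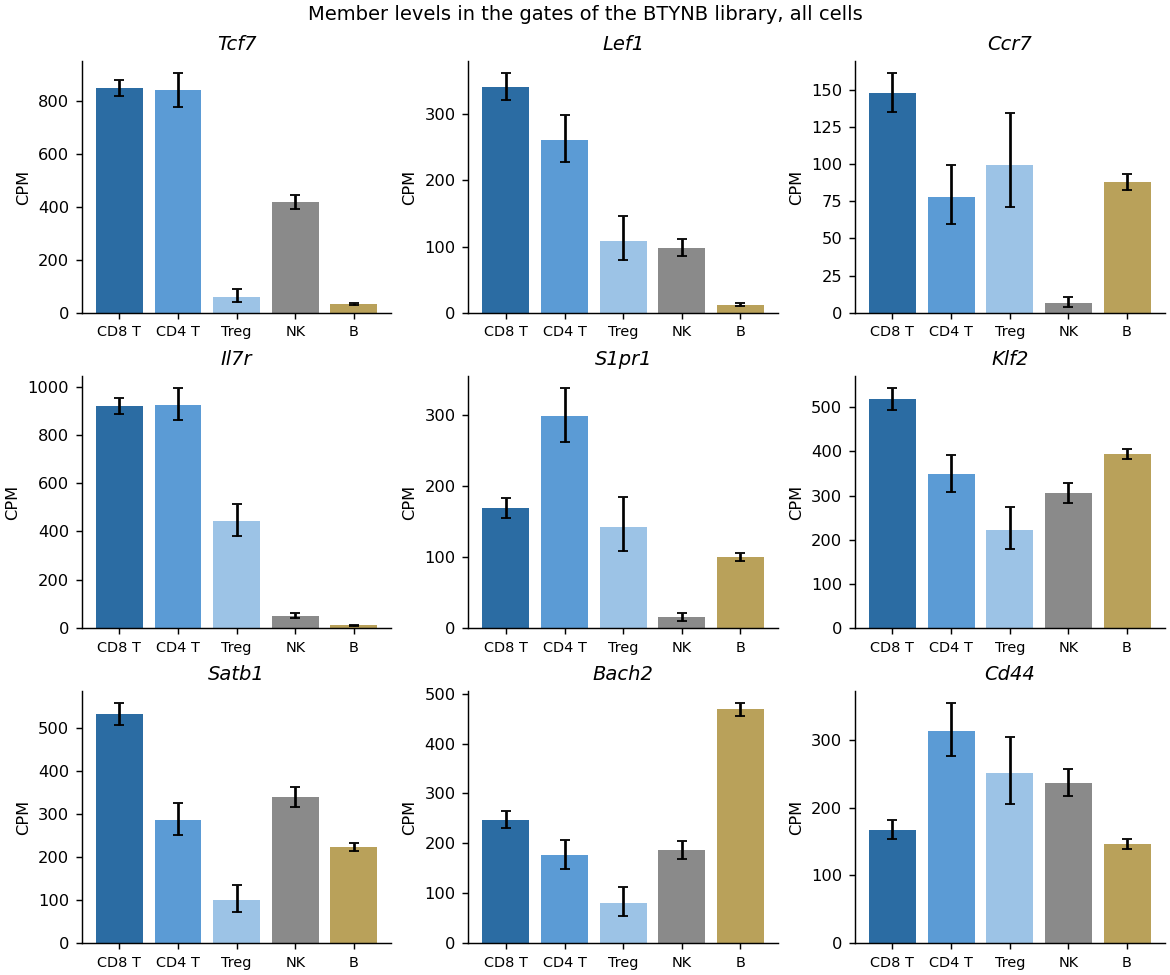
Levels of the 9 genes (CPM, linear axes from 0) in the 5 gates of the BTYNB library, all gated cells, with bars for the summed level and error bars for the 95% counting interval. Tcf7, Lef1 and Il7r were highest in the 2 conventional T gates, Bach2 in B cells at 468 CPM and Cd44 in CD4 T cells at 314 CPM.

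Some of the genes were also present in cells outside the lymphocyte gates. Ccr7 was at 1734 CPM in 205 BTYNB cells gated as mature dendritic by Fscn1 and Flt3, against 147 CPM in CD8 T cells, and such cells carry Ccr7 on their way to lymph nodes. Klf2 and Cd44 were at 412 and 479.8 CPM in 2495 macrophage-gated BTYNB cells. Tumour-gated cells had 165 CPM of Cd44, close to the 167 CPM of CD8 T cells, and 33.7 CPM of Klf2. Lef1, Il7r, S1pr1 and Satb1 stayed at or under 1.97 CPM in tumour-gated cells. Macrophages and tumour cells of this ascites thus held Cd44 near or above the CD8 T cell level, and macrophages held Klf2.

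The genes whose levels ran most like each member were found over 21 profiles of gate, library and depth range with at least 20 cells, as Pearson correlations of log2(CPM + 10). These profiles share libraries and depth, so the values are descriptions. Tcf7 was nearest to Cd96 (0.931), Lef1 to the T cell kinase gene Prkcq (0.968) and Il7r to the T cell adaptor gene Lat (0.973). Ccr7 was nearest to BE692007 (0.90), S1pr1 to Gm8369 (0.931), Satb1 to the lymphoid factor gene Ikzf1 (0.95) and Bach2 to Smg1 (0.953). Klf2 was nearest to Lyst (0.906) and Cd44 to the integrin gene Itgb1 (0.850). Among the members themselves, Lef1 ran with Tcf7 at 0.851 and with Il7r at 0.842, and Bach2 with Klf2 at 0.823, while Ccr7 and Cd44 ran apart at -0.40.

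The levels depended on how many UMIs a cell held. Within the BTYNB library, 8 of the 9 genes were at least 2-fold lower in the 81 CD8 T-gated cells at or above the floor than in the 1048 cells under it, and Cd44 was 1.33-fold higher. Over all genes tested 12.2% were at least 2-fold lower and 18.7% at least 2-fold higher in the same comparison. The median log2 ratio of the members was -2.48, and that of all 6686 genes 0.08.

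Tcf7 was at 1248 CPM in the 182 cells under 1500 UMIs, at 1157 CPM in the 506 cells from 1500 to 2500, at 1050.3 CPM in the 360 cells from 2500 to the floor and at 154 CPM at or above it. The 3 lower ranges stood close together, and cells at or above the floor were 7.19-fold lower than those under it (log2 ratio -2.85, interval -3.11 to -2.61). The floor was set by the combination library and the ranges are wide, so they do not place the depth at which the level falls. Il7r had the same shape, with 1159, 1323, 1143 and 138 CPM over the 4 ranges and a log2 ratio of -3.14 at the floor (-3.42 to -2.89). Satb1 ran through 658, 722, 689.7 and 92.8 CPM, which gave a log2 ratio of -2.90. For Il7r the range from 1500 to 2500 UMIs was the highest, and for Satb1 the intervals of the 3 lower ranges overlapped.

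Lef1 and Bach2 began to decline earlier. Lef1 fell from 654 CPM under 1500 UMIs to 526, 344 and 55.7 CPM, with non-overlapping intervals from the second range on. Bach2 was at 402 and 396 CPM in the smallest 2 ranges, at 235 CPM from 2500 to the floor and at 60.1 CPM above it. Both factors were thus higher under 2500 UMIs than in any larger cells of the gate. Klf2 was at 757, 708, 620.0 and 120.1 CPM, S1pr1 at 248, 253, 183 and 38.2 CPM, and Ccr7 at 175, 227, 156 and 41.5 CPM. Cd44 was at 171, 124, 174 and 204 CPM, with its lowest level in the second range and a log2 ratio of 0.41 at the floor (0.16 to 0.68).

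**Figure D2:**
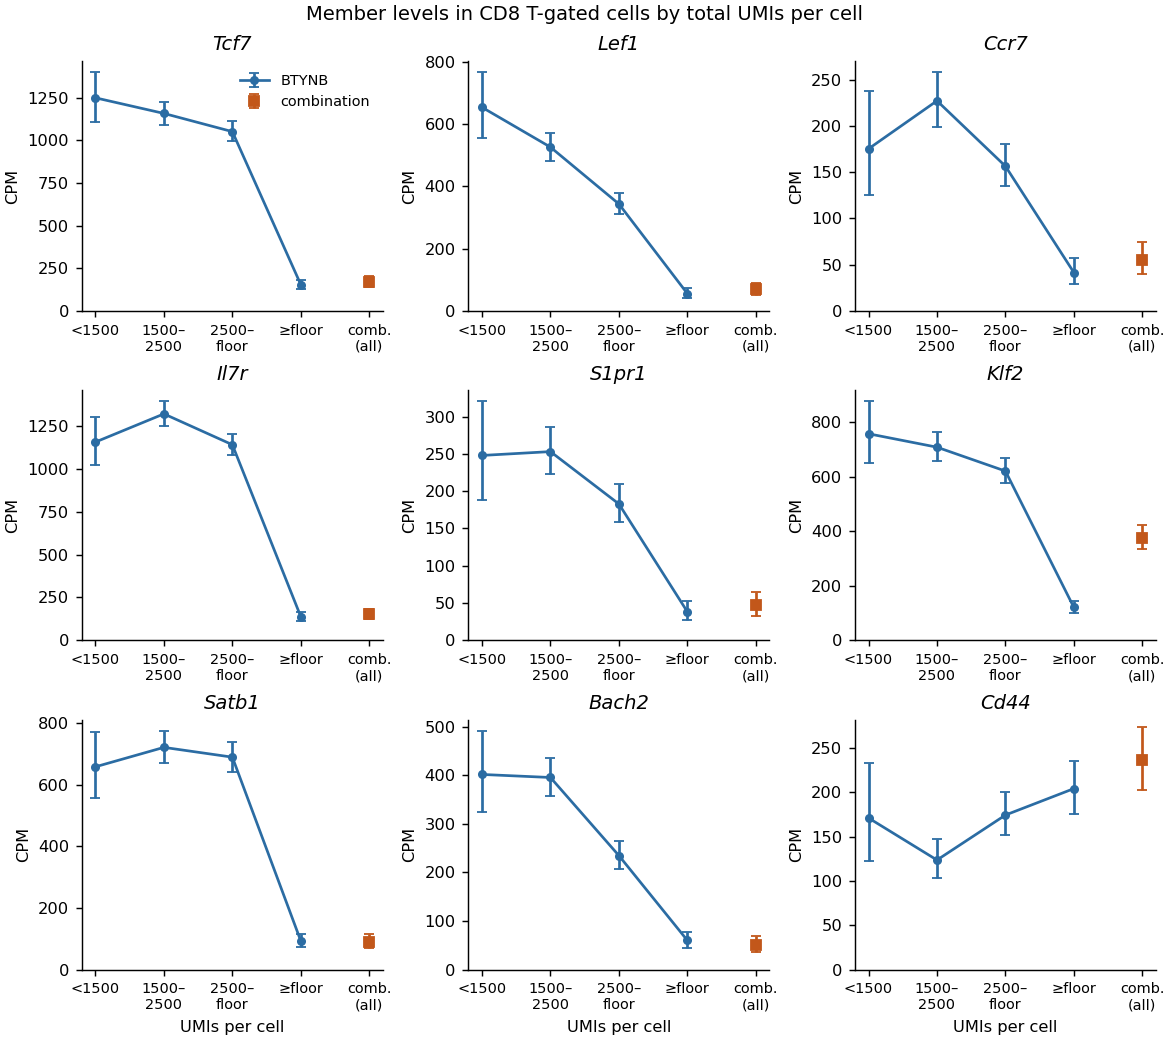
Levels of the 9 genes (CPM, linear axes from 0) in CD8 T-gated cells of the BTYNB library in 4 ranges of total UMIs per cell (circles, joined by a line) and in all combination cells of the gate (squares), with 95% counting intervals; the floor is 5115 UMIs. All genes but Cd44 are lowest in the range at or above the floor, and the combination cells lie near this last BTYNB range except for Klf2, at 376 CPM against 120.1.

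CPM are shares of a cell's RNA, so the same values were read as UMIs per cell. Tcf7 rose from 1.60 UMIs per cell under 1500 to 2.29 and 3.43 in the next 2 ranges and stood at 1.74 at or above the floor. Il7r rose from 1.49 to 2.62 and 3.73 and then stood at 1.56, and Satb1 went from 0.85 to 2.25 and then 1.05. A large CD8 T-gated cell therefore held fewer UMIs of these genes than a cell of the range below it, not only a smaller share. Cd44 rose throughout, from 0.22 to 2.31 UMIs per cell.

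Other genes changed between the same cells. Of 16 further genes of the naive and resting state, 13 were at least 2-fold lower at or above the floor, with Dapl1 at 89.1 CPM under it and 6.55 CPM above it and the kinase gene Txk at 243 and 37.1 CPM. Id3 went the other way, from 24.0 to 146 CPM. Of 10 proliferation genes, 9 were at least 2-fold higher, among them Mki67 (46.4 and 282 CPM) and Cdk1 (10.4 and 88.5 CPM), with a median log2 ratio of 2.27. Among effector genes Gzmb rose from 36.9 to 193 CPM while the chemokine gene Ccl5 fell from 3873 to 1546 CPM. These lists do not tell T cells from other cells in the gate.

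Markers of other cells moved with depth in this gate too. The summed T lineage genes were at 5497 CPM under the floor and at 2572 CPM above it, and the summed tumour genes at 277 and 1480 CPM. Cells with UMIs of another kind made up 3.63% under the floor and 44.4% at or above it. Without such cells, 45 against 1010 cells, the same 8 genes were still at least 2-fold lower: the log2 ratio was -2.65 for Tcf7, -2.97 for Il7r, -2.53 for Lef1, -2.06 for Klf2 and -1.49 for Ccr7, the smallest, and Cd44 stood at 0.61. The share of all genes past 2-fold among these cells is not given. Whether proliferation has a part in the remaining difference was not tested.

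The other gates had their own relation to depth. In CD4 T cells 7 of 9 genes were at least 2-fold lower at or above the floor (16.7% of all genes), with Tcf7 at 1057 CPM under it and 214 CPM in the 23 cells above it. In NK cells 7 of 9 were lower (8.53% of all genes), and Il7r went from 81.6 to 3.26 CPM, the latter only 3 UMIs in 93 cells. Without cells that carried UMIs of another kind 4 of 9 were lower in NK cells (the share of all genes is not given), and Tcf7 was at -0.85, Lef1 at -0.83 and S1pr1 at -0.75. In CD4 T cells, where 15.1% of all genes were at least 2-fold higher, and in NK cells, where 12.6% were, none of the members was. In Treg cells 2 of 9, Il7r and Satb1, were lower (18.9% of all genes) and Ccr7 was higher (16.2%), from 69.5 to 149 CPM on 23 UMIs in 16 cells. That rise of Ccr7 depended on the cells kept: its log2 ratio of 1.09 became -0.17 without doublet removal, and no member was at least 2-fold higher in Treg cells then, in cells of exactly 1 gate or without the CD3 condition. The members called in conventional T and NK cells were all lower, and Treg cells, with 16 cells above the floor, mostly gave intervals that include 0.

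In B cells 7 of 9 genes were at least 2-fold lower at or above the floor, where 27.5% of all genes were, and Tcf7 was higher (25.3%), from 10.5 to 54.8 CPM. Bach2 went from 933 to 35.3 CPM, Satb1 from 445 to 16.2 and S1pr1 from 200.4 to 5.79 CPM. The gate itself changed: its 8 B cell markers summed to 11130 CPM under the floor and to 796 CPM above it, the tumour genes to 304 and 2795 CPM, and 79.7% of the 286 large cells had UMIs of another kind. The Tcf7 level of these large cells was close to the 52.2 CPM of tumour-gated cells. Without cells that carried UMIs of another kind, Tcf7 stood at 9.67 CPM in the 58 large cells left against 8.44 CPM in small ones, while Bach2 stood at 176 against 941 CPM.

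Combination cells were set against BTYNB cells to see whether adding PD-1 blockade changed these genes. Over all CD8 T-gated cells 7 of 9 members were at least 2-fold lower in combination, where 5.96% of all genes were, and none was at least 2-fold higher, where 9.56% were, with a median log2 ratio of -2.29. Tcf7 was at 169.8 CPM against 849.8, Il7r at 151 against 922, Satb1 at 90.1 against 533 and Lef1 at 69.2 against 341 CPM. Klf2 was at 376 against 518 CPM and Cd44 at 236 against 167 CPM. The 93 combination cells all lay at or above the floor, and 1048 of the BTYNB cells did not. The other gates had the same split over all cells: none of the members was at least 2-fold higher in CD4 T (18.3% of all genes), Treg (17.1%), NK (9.55%) or B cells (1.36%). At least 2-fold lower were 6 in CD4 T (13.0%), 5 in Treg (17.6%), 4 in NK (7.24%) and 5 in B cells (7.86%).

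Among cells at or above the floor none of the 9 members was at least 2-fold lower in combination (1.45% of all genes were), and 1 was at least 2-fold higher (2.25% of all genes). Tcf7 was at 169.8 CPM in combination (142 to 202) and 154 CPM in BTYNB (130 to 182), a log2 ratio of 0.14 (-0.21 to 0.50). Il7r was at 151 and 138 CPM, also 0.14 (-0.24 to 0.51), and Cd44 at 236 and 204 CPM, 0.21 (-0.09 to 0.51). The intervals of Lef1, Ccr7, S1pr1, Satb1 and Bach2 included 0 as well, with log2 ratios from -0.27 for Bach2 to 0.39 for Ccr7. The widest of these intervals, that of S1pr1, ran from -0.41 to 1.01, and that of Bach2 from -0.91 to 0.35. That of Ccr7 ran from -0.27 to 1.07 and that of Lef1 from -0.27 to 0.90. For S1pr1, Ccr7, Lef1 and Bach2, differences of about 2-fold in 1 direction thus cannot be told from counting error. The intervals of Tcf7, Il7r and Cd44 were narrower, and smaller differences within them cannot be told from counting error either. The median depth of the 2 sets of cells was 8302 UMIs in BTYNB and 6778 in combination. With both held under 8000 UMIs, a limit chosen after seeing the data, Klf2 was at 1.62 and 1 member, Satb1, was at least 2-fold lower (-1.15). Neither intervals nor the share of all genes past 2-fold are given for this window.

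**Figure D3:**
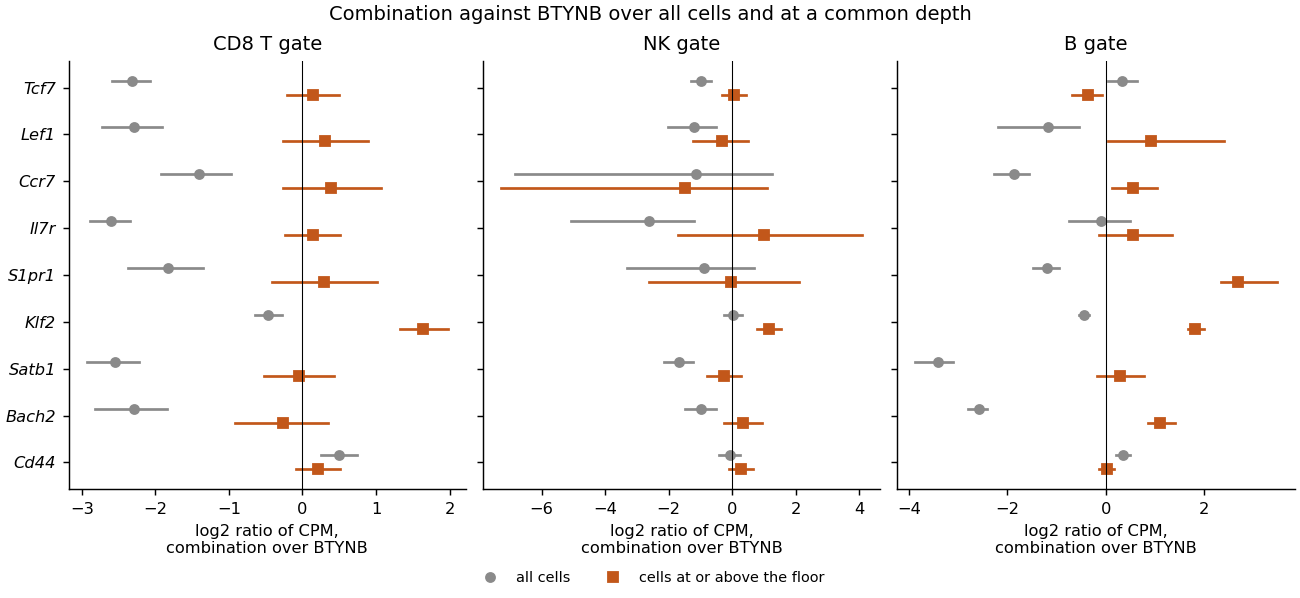
Log2 ratio of CPM, combination over BTYNB, of the 9 genes in the CD8 T, NK and B gates over all cells (grey circles) and over cells at or above the floor of 5115 UMIs (orange squares), with 95% counting intervals. In the CD8 T gate the grey values of 7 genes lie under -1 and the orange values lie around 0 except for Klf2 at 1.64.

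Klf2 differed in the other direction than over all cells. It was at 376 CPM in combination (334 to 422) and 120.1 CPM in BTYNB cells at or above the floor (98.7 to 145), 3.11-fold higher (log2 ratio 1.64, 1.32 to 1.98). Against all BTYNB cells it was lower, with a log2 ratio of -0.46, so its direction depends on which cells enter. At the floor Klf2 was likewise higher in the CD4 T gate on 33 and 12 UMIs (log2 ratio 2.33, 1.36 to 3.44). The same held in the NK gate (311 against 139 CPM, 1.16, 0.79 to 1.53) and in the B gate (292 against 81.6 CPM, 1.83, 1.68 to 2.0). The B value depended on depth, which differed between the 2 libraries in that gate. With both held under 8000 UMIs, Klf2 was at 0.70 in the B gate, under 2-fold. It was then at 1.62 in the CD8 T gate and just past 2-fold in the NK gate. In the Treg gate Klf2 was at 239 and 182 CPM, with an interval that includes 0 (0.39, -0.45 to 1.24). All of these values compare the same 2 libraries.

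Klf2 was also higher in combination outside the lymphocyte gates, at 692 against 434 CPM in macrophage-gated cells at or above the floor and at 413 against 213 CPM in mature dendritic cells, but not in tumour-gated cells, at 32.7 against 33.5 CPM. Macrophage genes were more abundant in the combination gates: their sum was 3458 against 1512 CPM in the CD8 T gate, 2950 against 1148 CPM in the NK gate and 1873 against 696 CPM in the B gate. Without cells that carried UMIs of another kind the log2 ratio of Klf2 was 1.57 in 37 against 45 CD8 T cells (1.10 to 2.05), 0.85 in 15 against 63 NK cells (0.21 to 1.47) and 1.84 in 62 against 58 B cells (1.54 to 2.16). In the CD4 T gate their removal left 6 UMIs of Klf2 in either library (1.58, -0.30 to 3.50) and in the Treg gate 6 against 14 (-0.35, -2.01 to 1.12), both with intervals that include 0. With only cells free of any Lyz2, C1qa, C1qb or Csf1r UMI, a limit chosen after these sums had been seen, it was 1.57 in the CD8 T gate. At the floor 155 genes were at least 2-fold higher in the CD8 T gate, 255 in the NK gate and 180 in the B gate. Of all genes, 20 were so in these gates alike, Klf2 among them. Depth differed between the libraries in the B gate, and this overlap is not given under 8000 UMIs.

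The promoter of Klf2 is shown because Klf2 was the member at least 2-fold apart between the large CD8 T cells of the 2 libraries, both with and without the upper limit of 8000 UMIs. The 250 bases before its transcript start (RefSeq, GRCm38.p6, chr8:72318812-72319061, plus strand) hold 1 match to TAAATTTA, the core bound by MEF2 factors, in capitals here, that starts 117 bases before the transcript.
Klf2 promoter: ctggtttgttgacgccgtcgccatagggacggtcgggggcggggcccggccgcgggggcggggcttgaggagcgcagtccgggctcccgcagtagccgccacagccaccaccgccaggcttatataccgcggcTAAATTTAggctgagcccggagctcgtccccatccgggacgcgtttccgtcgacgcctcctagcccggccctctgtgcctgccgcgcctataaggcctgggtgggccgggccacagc
The core reads the same on both strands and was found in 0.502% of 32851 promoter windows of this length and in 1 of the 15 windows of members. Promoters of 7 of the 9 members were in the table used. The KLF core CACCC, on either strand, lay in 11 of the 15 windows, those of Klf2, Lef1, Satb1 and Tcf7, and in 52.0% of all windows. The TCF/LEF core CTTTGA lay in 2 of the 15, those of Bach2 and Lef1, and in 13.8% of all, and the FOXO core GTAAACA in 0 of the 15 and in 3.17% of all. Windows of 1 gene can overlap. A match is a string of letters and does not show that a factor binds there.

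B cells gave further differences at the floor. In B cells 3 members were at least 2-fold higher in combination (2.66% of all genes) and none lower (0.104%). Besides Klf2 these were S1pr1, at 43.1 against 5.79 CPM (log2 ratio 2.70, 2.35 to 3.48), and Bach2, at 77.2 against 35.3 CPM (1.11, 0.86 to 1.41). B cell markers summed to 2156 CPM in these combination cells and to 796 CPM in the BTYNB cells. Without cells that carried UMIs of another kind S1pr1 still stood at 165 against 31.0 CPM (2.38) and Bach2 at 229 against 176 CPM (0.37, -0.06 to 0.81). In macrophage-gated cells S1pr1 was likewise higher in combination, at 29.3 against 5.58 CPM. The B gate cells also differed in depth, with medians of 18952 UMIs in BTYNB and 8179 in combination. With both held under 8000 UMIs no member was 2-fold higher in B cells: S1pr1 was at 0.79, Klf2 at 0.70 and Bach2 at -0.18.

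In NK cells 1 member, Klf2, was at least 2-fold higher (3.69% of all genes) and 1, Ccr7, lower (2.69%) on 1 against 8 UMIs, with an interval from -7.28 to 1.09. Tcf7 was at 214 and 205 CPM in combination and BTYNB NK cells and Satb1 at 107 and 127 CPM, with intervals that include 0. Without cells that carried UMIs of another kind, which were 68.1% of the combination NK cells, Satb1 stood at 73.9 against 189 CPM (-1.34, -2.61 to -0.31) and Tcf7 at 342 against 310.2 CPM (0.14, -0.42 to 0.67). The Satb1 value in NK cells thus depends on which cells enter, and that of Tcf7 kept an interval that includes 0.

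The T cell gates with few cells are given by their counts. In the CD4 T gate, 13 against 23 cells, Tcf7 was at 229 and 214 CPM (26 and 45 UMIs) and Cd44 at 211 and 252 CPM. In the Treg gate, 11 against 16 cells, Il7r was at 39.9 and 175 CPM (4 and 27 UMIs), and Ccr7 had 0 UMIs in combination and 23 in BTYNB, at least 4.99-fold lower if 3 UMIs are taken as the limit for a count of 0. In the CD4 T gate 1 member was at least 2-fold higher (Klf2, 17.2% of all genes) and 1 lower (Bach2 on 1 against 6 UMIs, 10.4%). In the Treg gate none was higher (16.9%) and 4 were lower (14.7%), Ccr7, Il7r, S1pr1 and Bach2. With this many of all genes past 2-fold in either direction, single members of these gates carry little weight.

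Detection per cell was compared after each cell had been thinned to 1000 UMIs, which kept 1120 BTYNB and all 93 combination cells of the CD8 T gate. Tcf7 was detected in 60.4% of the former (57.4 to 63.2%) and 12.9% of the latter (6.85 to 21.5%). Il7r was seen in 56.3 and 15.1%, Satb1 in 40.4 and 7.53%, Lef1 in 32.9 and 6.45%, and Bach2 in 24.6 and 6.45%. Ccr7 was found in 17.5 and 5.38%, S1pr1 in 17.4 and 1.08%, Klf2 in 42.5 and 29.0% and Cd44 in 13.4 and 21.5%. The combination interval lay under the BTYNB interval for 8 of the 9 genes, all but Cd44. That count was 5 without thinning and 4 when the gates themselves were set on the thinned counts. Unthinned, the Tcf7 shares were 80.2 and 51.6%, at median depths of 2254 and 6778 UMIs.

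Tumour-gated cells gave the background of this measure. At 1000 UMIs their Tcf7 share was 5.40% in the BTYNB library and 4.40% in combination, with Klf2 in 3.31 and 2.69%, and Cd44 in 14.3 and 13.5%, at median depths of 17455 and 11891 UMIs. The other 6 genes were found in 1.07% or less. The Cd44 share of BTYNB CD8 T cells was thus no higher than that of tumour cells, which hold the gene too, and the S1pr1 share of combination cells rests on 1 cell.

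Between large cells the shares met. At or above the floor and thinned to 5000 UMIs, 42.0% of 81 BTYNB cells had Tcf7 and so had 40.9% of 93 in combination, with Il7r in 34.6 and 39.8%, Satb1 in 34.6 and 30.1%, and Lef1 in 18.5 and 26.9%. Klf2 stood at 35.8% (25.4 to 47.2%) and 65.6% (55.0 to 75.1%), the only pair of intervals that did not overlap. A UMI of Klf2 was therefore seen in more combination cells of the gate and not only in a few with high counts. These shares include the 60.2% of combination cells that carried UMIs of another kind. Macrophage-gated cells at the floor held Klf2 at 692 CPM in combination and 434 CPM in BTYNB. Whether macrophage RNA has a part in these shares was not tested. The tumour-gated cells of the same size had 11.1 and 12.6%. In the NK gate its shares were 49.5 and 55.3%, with overlapping intervals, and in the B gate 33.2 and 60.1%.

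**Figure D4:**
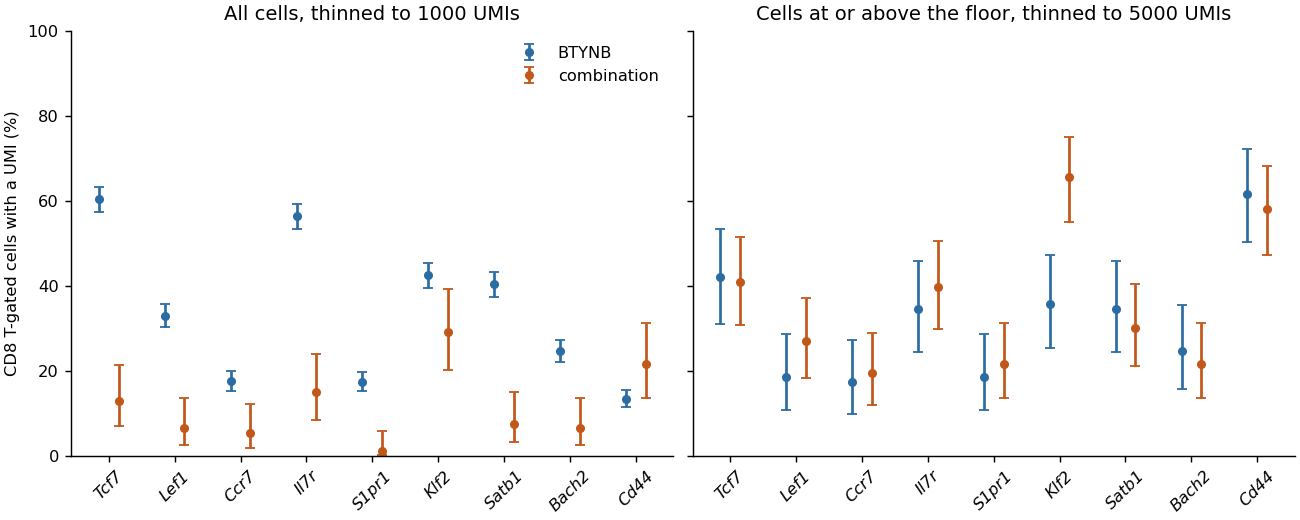
Share of CD8 T-gated cells (%) with a UMI of each gene in the BTYNB and combination libraries, for all cells thinned to 1000 UMIs (left) and for cells at or above the floor thinned to 5000 UMIs (right), with 95% binomial intervals. Tcf7 stands at 60.4 and 12.9% on the left and at 42.0 and 40.9% on the right, where Klf2 alone has separate intervals.

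Further genes of T cell states were read in CD8 T cells at the floor. Of 16 genes of the naive and resting state 14 passed the filter of 20 CPM, and none was 2-fold higher or lower in combination, with a median log2 ratio of 0.24 against 0.01 over all genes. Of 15 effector genes 12 passed the filter, and 3 were at least 2-fold higher (2.25% of all genes). These were Gzmk at 61.4 against 12.0 CPM, Zeb2 at 222 against 92.8 and Gzma at 103 against 50.2. Cx3cr1 was lower on 12 against 32 UMIs (1.45% of all genes). These values include the 60.2% of combination cells with UMIs of another kind, so they do not tell T cells from other cells in the gate. Of 10 exhaustion and activation genes 9 passed the filter, and Tnfrsf9 was lower, at 67.9 against 174 CPM (log2 ratio -1.34). Of 7 residency genes 5 passed the filter, and none of these and none of the 10 proliferation genes passed 2-fold.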

How the data were processed

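The authors captured cells with BD Rhapsody and deposited 1 matrix of raw UMI counts per pooled library (polyA RNA, build GRCm39 per the labels). The members and all gene lists were chosen with earlier results of these data known. Cells with fewer than 200 genes or over 33% mitochondrial UMIs were removed, the limits of the study's methods. Scrublet (scanpy 1.11.5) marked too few cells by itself (0.0128 to 3.05%), so the 5% with the highest score were removed per library. The CD3 condition was carried over to the CD4 T and Treg gates. Macrophage and mature dendritic gates were added after seeing the data. UMIs were summed per gate and given as CPM with exact Poisson intervals. Log2 ratios used a pseudocount of 1 CPM and intervals from the binomial share. Shares after thinning carry exact binomial (Clopper-Pearson) intervals. Counts past 2-fold over all genes used a mean of at least 20 CPM; members were counted with or without it (at the floor it left 9 in CD8 T, 8 in CD4 T, 8 in Treg, 6 in NK and 5 in B cells). All members are named, with up to 4 genes per further list by size of change. Scripts were tested on simulated data. Totals were 114600397 UMIs in BTYNB and 78603888 in combination. With 1 library per group no p-value was computed. Co-detection of members within single cells is not reported here.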

Additional observations from a re-analysis of the deposited data

Results flagged for a closer look

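Some members moved in opposite directions in different gates, judged by intervals on opposite sides of 0; the differences between gates were not tested. For combination against BTYNB at or above the floor, Ccr7 had a log2 ratio of -2.32 in Treg cells (a bound on 0 against 23 UMIs) and 0.56 in B cells. S1pr1 had -1.85 in Treg cells on 3 against 17 UMIs and 2.70 in B cells. With both libraries held under 8000 UMIs, Ccr7 in B cells was at -0.043, and no member, S1pr1 included, was at least 2-fold higher there.

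Within the BTYNB library, cells at or above the floor were set against cells under it. The log2 ratio of Tcf7 was -2.85 in CD8 T, -2.30 in CD4 T and -1.43 in NK cells, but 2.28 in B cells. Without cells that carried UMIs of another kind, Tcf7 stood at -2.65, -1.79 and -0.85 in CD8 T, CD4 T and NK cells. In B cells it then stood at 0.18, with an interval that includes 0 (-1.49 to 1.52). The log2 ratio of Ccr7 was -2.15 in CD8 T and -3.33 in B cells, and 1.09 in Treg cells, where it turned to -0.17 without doublet removal. That of Cd44 was 0.41 in CD8 T and 0.80 in B cells, and -0.53 in NK cells. Without cells that carried UMIs of another kind, Cd44 stood at 0.61 in CD8 T and 1.34 in B cells. In NK cells it then stood at -0.31, with an interval that includes 0 (-0.64 to 0.003).

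The few gated cells of the 2 libraries outside the comparisons held UMIs of members above the limit of 3 counts. In the 8 CD8 T-gated control cells Tcf7 was at 334 CPM on 22 UMIs, Klf2 at 243 on 16, Lef1 at 121 on 8, Satb1 at 75.9 on 5 and S1pr1 at 60.7 CPM on 4. In the 11 NK-gated control cells Klf2 was at 114 and Satb1 at 71.5 CPM. In the 22 CD8 T-gated anti-PD-1 cells Klf2 was at 208 CPM on 25 UMIs.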

How the results depend on the processing

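No paired analysis was possible because each group had 1 pooled library. Of the members' log2 ratios under other settings 426 kept direction and size, 136 moved and 14 reversed, and the causes were not tested. Member counts under other settings, here and above, stand without the share of all genes under the same setting, except over all cells. They are thus not read against all genes. The 8 genes that were at least 2-fold lower at or above the floor in CD8 T cells of the BTYNB library were so under all 7 other settings, with Ccr7 the weakest at -1.49. The Klf2 ratio at the floor in CD8 T cells lay between 1.13 (no doublet removal) and 1.74 (cells in exactly 1 gate) and was -0.46 over all cells.

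With all cells in place of those at the floor, members at least 2-fold higher and lower in combination were 0 and 7 in CD8 T, 0 and 4 in NK and 0 and 5 in B cells, and in B cells Tcf7 stood at 0.34, Lef1 at -1.17, Ccr7 at -1.86, S1pr1 at -1.19, Klf2 at -0.43 and Bach2 at -2.58. Among cells from the floor to under 8000 UMIs, a window added after seeing the data, 1 member was lower in CD8 T, 2 were higher and 0 lower in NK, and 0 were higher in B cells, where Tcf7 was at 0.39, Lef1 at -0.46, Ccr7 at -0.043 and Bach2 at -0.18. In NK cells none was higher without doublet removal, 2 were lower without other-kind UMIs or with stricter gates, 2 were higher without any macrophage UMI, and 0 were lower with a pseudocount of 10 CPM. Tcf7 in B cells was at 0.81 without other-kind UMIs.

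For large against small BTYNB cells, Treg members at least 2-fold higher and lower were 0 and 4 without doublet removal (Ccr7 at -0.17) and 0 and 6 without the CD3 condition, and 0 were higher in exactly 1 gate. In NK cells 1 was higher without doublet removal or with stricter gates, and 4 were lower without other-kind UMIs. In B cells 0 were higher without doublet removal and 2 with stricter gates, and Il7r was at 0.30 without other-kind UMIs.

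The summed CPM of the 8 members other than Cd44 in CD8 T cells, 3728 in BTYNB and 1008 in combination, was in BTYNB 3504 without doublet removal, 3866 in exactly 1 gate, 4385 without other-kind UMIs, 3806 with stricter gates and 4749 as a mean over cells, and in combination 1155 without other-kind UMIs and 1083 as a mean over cells. The 8 members with a lower share in combination CD8 T cells at 1000 UMIs were 5 without thinning, 4 with gates on thinned counts and 0 at the floor with 5000 UMIs. Gates with 11 to 47 combination cells limit what the Treg, CD4 T and NK values can show.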
